A study of Macaca mulatta with 30 samples.

Results

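The probesets of the rhesus macaque GeneChip whose identifier begins with MmuMitochon, which names the mitochondrial genome, are 6 of the 52865 probesets in the table. They were chosen by this identifier, with their low signal in cerebral cortex already known, so values that set cortex against the other tissues are given as a description and were not tested. The 30 arrays divide into 6 for each of 5 rhesus RNAs (thymus, testis, pancreas, cerebral cortex and cultured immortalized fibroblasts) and 10 for each of 3 centers, Oregon, Nebraska and Yerkes. Every RNA was thus hybridized on 2 arrays per center, 1 per aliquot. The labels name no treatment and give neither age, sex nor strain of the animals. Per the study's methods the cortex RNA came from Yerkes, the fibroblast RNA from Nebraska and the other 3 from Oregon. With 1 RNA per tissue, the tissue, the animal and the origin of the RNA cannot be told apart, and p-values describe only the spread of labeling and hybridization.

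The mitochondrial genome is a small circle of DNA, present in many copies per cell, that codes for a few subunits of respiratory complexes I, III, IV and V and for the ribosomal and transfer RNAs that translate them. All other subunits, and every protein that copies, transcribes and translates this genome, come from the nucleus. Both strands are transcribed as long precursors that are cut into single RNAs, most of which receive a short poly(A) tail. In bulk RNA, fewer mitochondria-rich cells and less mitochondrial RNA per cell cannot be told apart. The probe annotation used here listed 0 of the 6 probesets, so the gene behind each is not named, and their probe sequences were not analysed here. The ending _s_at, carried by 4 of them, marks probes that match more than 1 transcript, and those probesets may therefore share signal with near-identical sequences.

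Of the marker genes measured, 27 of 27 had their highest mean in the tissue they stand for. The markers were chosen with earlier results of these data known, so this is no independent check of the labels. Array means ran from 6.32 to 6.33 on the log2 scale in Oregon, from 6.35 to 6.39 in Nebraska and from 6.90 to 6.93 in Yerkes. The excess of the 3' over the 5' control probeset, a sign of RNA quality, averaged, for GAPDH, 0.82 ± 0.42 (SD, n = 6 arrays) in cortex, 0.47 ± 0.36 in thymus, 0.69 ± 0.29 in testis, 1.58 ± 0.49 in pancreas and 1.81 ± 0.58 in fibroblast. The paper found the pancreas arrays of lower quality than the rest, by their scaling factors and the standard errors of their signals. It advises caution with them, which applies to every comparison with pancreas and to the mean of the tissues other than cortex.

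Of the 6 probesets, 3 had a lower signal on every cerebral cortex array than on any array of another tissue. For MmuMitochon.3.1.S1_s_at the lowest, median and highest log2 signals of the 6 arrays were 5.75, 7.07 and 7.78 in cortex, 12.05, 12.46 and 12.92 in thymus, 11.75, 12.01 and 12.14 in fibroblast, 12.85, 13.25 and 13.88 in testis and 12.78, 12.88 and 13.41 in pancreas. The cortex arrays stood apart, and the gap between the highest of them and the lowest of the other 24 was 3.97. In cortex this probeset lay between the 39.6th and the 78.0th percentile of its array, while in the other tissues it was never below the 99.2nd.

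MmuMitochon.6.1.S1_s_at behaved alike. Its lowest, median and highest signals were 7.16, 7.84 and 8.63 in cortex, 13.15, 13.24 and 13.89 in thymus, 12.42, 12.75 and 13.13 in fibroblast, 13.51, 13.78 and 14.02 in testis and 12.84, 13.00 and 13.50 in pancreas. Here too every cortex array lay below the other 24, with a gap of 3.79.

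MmuMitochon.10.1.S1_s_at stood at 9.20, 9.73 and 10.24 in cortex, 13.20, 13.35 and 13.77 in thymus, 10.27, 11.40 and 12.70 in fibroblast, 13.75, 13.84 and 14.18 in testis and 13.39, 13.49 and 13.70 in pancreas. Cortex was again below all other arrays, but only by 0.03, because the fibroblast arrays of Nebraska, at 10.33 and 10.27, came close to the highest cortex arrays.

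**Figure D1:**
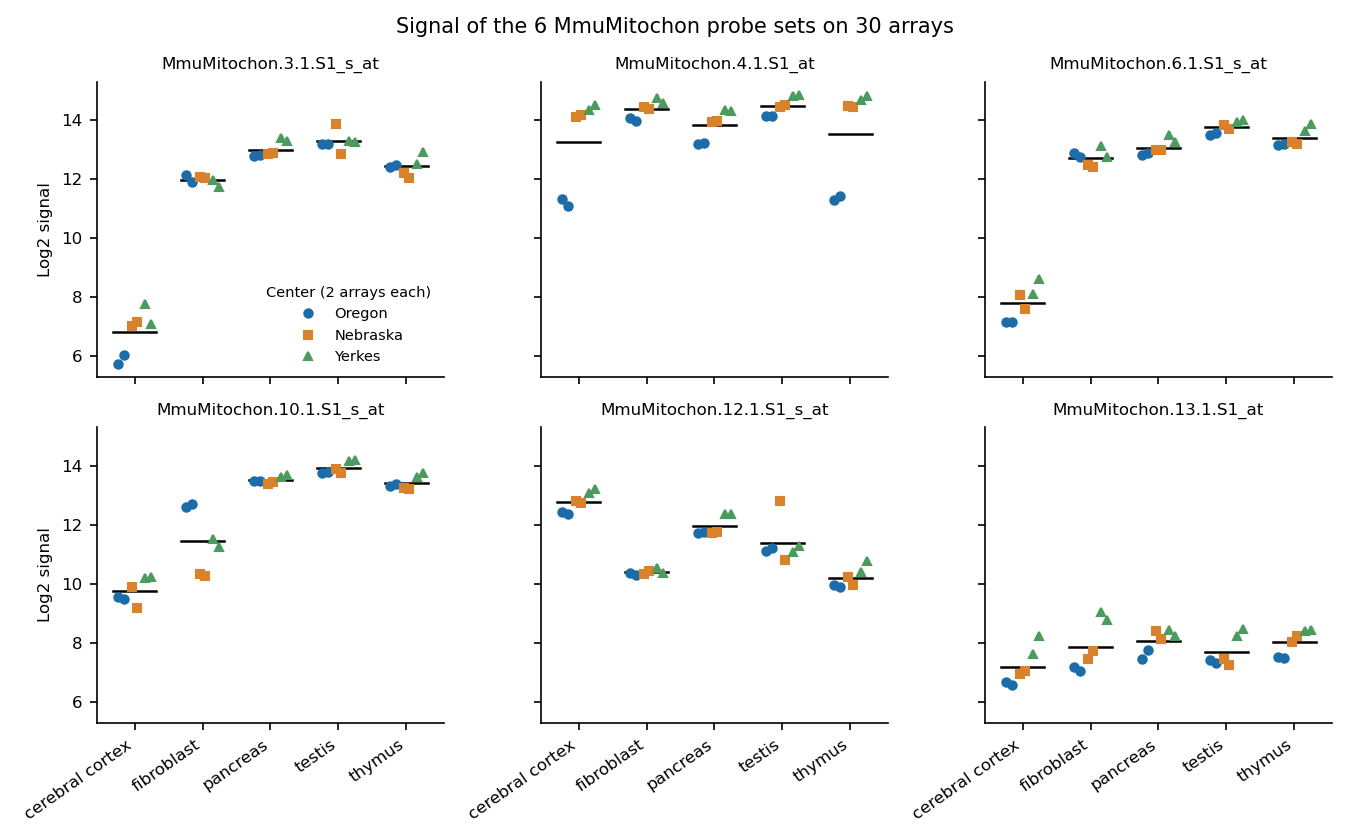
Log2 signal (y axis) of each MmuMitochon probeset on the 30 arrays by tissue (x axis), with symbols for the 3 centers, 2 arrays each, and a line at the mean of each tissue. In cerebral cortex, MmuMitochon.3.1.S1_s_at and MmuMitochon.6.1.S1_s_at stay below 7.78 and 8.63, while no array of another tissue is below 11.75 and 12.42, and MmuMitochon.4.1.S1_at drops in cortex and thymus at Oregon.

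The other 3 probesets did not follow this order. MmuMitochon.12.1.S1_s_at was highest in cortex, where its lowest, median and highest signals were 12.36, 12.78 and 13.22. It stood at 11.72, 11.75 and 12.38 in pancreas, 10.82, 11.16 and 12.79 in testis, 10.29, 10.37 and 10.55 in fibroblast and 9.90, 10.10 and 10.78 in thymus. The cortex arrays overlapped the others only through 1 testis array of Nebraska at 12.79 and the pancreas arrays of Yerkes, both at 12.38, and at Oregon and Yerkes the cortex arrays lay above all arrays of the same center.

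MmuMitochon.13.1.S1_at had the smallest range of tissue means of the 6. The lowest, median and highest values were 6.58, 6.99 and 8.24 in cortex, 7.48, 8.12 and 8.43 in thymus, 7.04, 7.59 and 9.06 in fibroblast, 7.24, 7.42 and 8.47 in testis and 7.46, 8.18 and 8.43 in pancreas. All tissues overlapped over the centers together, and within each center the cortex mean was the lowest of the 5.

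MmuMitochon.4.1.S1_at was close to the top of the scale. It was the probeset with the highest signal on 6 of the 30 arrays, 3 from fibroblast and 3 from thymus, and among the 10 highest on 20. Its lowest, median and highest signals were 11.09, 14.15 and 14.53 in cortex, 11.31, 14.47 and 14.83 in thymus, 13.98, 14.43 and 14.77 in fibroblast, 14.14, 14.49 and 14.86 in testis and 13.20, 13.96 and 14.35 in pancreas. The low values of cortex and thymus were those of Oregon alone.

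Taken as the cortex mean minus the mean of the 4 other tissues, the log2 difference over the 3 centers was -5.87 ± 0.75 (SD, n = 3 centers) for MmuMitochon.3.1.S1_s_at, which is a 58.5-fold lower signal. These are differences of signal, not of RNA amount, since the match of the probes to the sequence of each animal was not analysed here, and with no floor of detection the folds of probesets as low in their array as this one in cortex may be limited by background. It was -5.45 ± 0.43 for MmuMitochon.6.1.S1_s_at (43.8-fold lower) and -3.31 ± 0.41 for MmuMitochon.10.1.S1_s_at (9.95-fold lower). For MmuMitochon.13.1.S1_at the difference was -0.73 ± 0.13 and for MmuMitochon.4.1.S1_at -0.79 ± 1.02, an SD larger than the mean. MmuMitochon.12.1.S1_s_at differed the other way, by 1.80 ± 0.20, a 3.47-fold higher signal in cortex.

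At the single centers the difference of MmuMitochon.3.1.S1_s_at was -6.73 (Oregon), -5.50 (Nebraska) and -5.37 (Yerkes). That of MmuMitochon.4.1.S1_at was -1.97 at Oregon but -0.19 at Nebraska and -0.22 at Yerkes, where cortex no longer had the lowest mean, the pancreas mean being lower. At Nebraska and Yerkes this probeset was near the top of the scale, where differences may be compressed. The direction was the same at the 3 centers for each of the 6 probesets. The median over the 6 was -2.05, and over all probesets of the table it was -0.06.

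**Figure D2:**
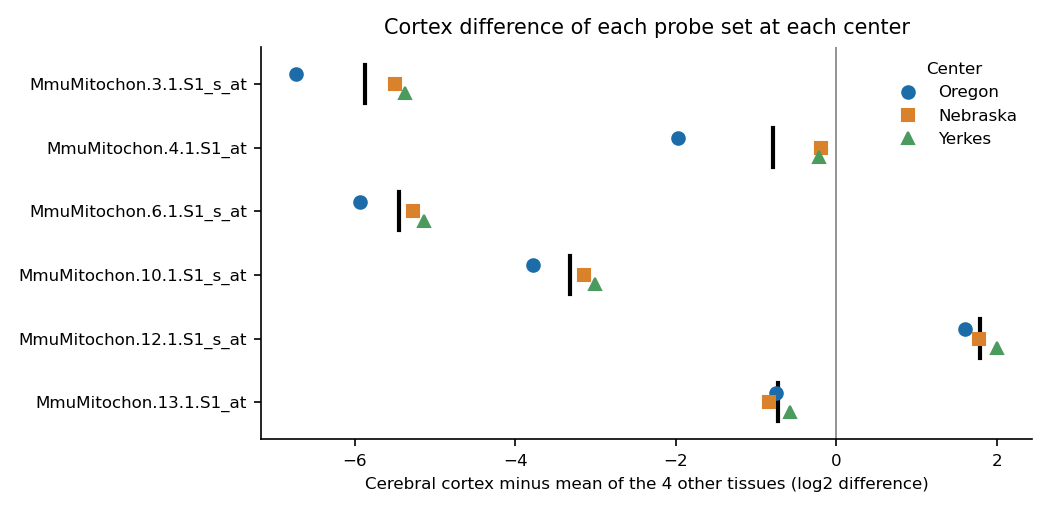
Log2 difference between cerebral cortex and the mean of the 4 other tissues (x axis) for each MmuMitochon probeset (y axis), as 1 point per center and a line at the value over all centers. The points of MmuMitochon.3.1.S1_s_at lie between -6.73 and -5.37 and those of MmuMitochon.12.1.S1_s_at between 1.61 and 2.00.

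Ordered by this difference, MmuMitochon.3.1.S1_s_at had the lowest value of all 52865 probesets. MmuMitochon.6.1.S1_s_at ranked 4 and MmuMitochon.10.1.S1_s_at 40 from the lowest, where 9 probesets in all were lower by at least 5 and 72 by at least 3. Of the 10 lowest, those with a gene symbol were 2 probesets of the collagen gene COL1A2 (-5.25 and -5.01), LOC710110 (-5.08) and the cell cycle gene CKS2 (-4.81). MmuMitochon.4.1.S1_at and MmuMitochon.13.1.S1_at ranked 5363 and 6111 from the lowest, and MmuMitochon.12.1.S1_s_at ranked 2103 from the highest. All 6 cortex arrays lay below the 24 others in 1.88% of all probesets and above them in 6.02%, against 3 and 0 of the MmuMitochon probesets.

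Among the tissues other than cortex, fibroblast had the lowest mean of the 4 for 3 of the 6 probesets, those that were low in cortex. In the limma model over all 30 arrays with center as a term, a difference was called at a Benjamini-Hochberg adjusted p under 0.05 over all probesets. Fibroblast and pancreas differed in 4 of 6 probesets (77.7% of all probesets were called), fibroblast and testis in 4 (65.8%), fibroblast and thymus in 4 (58.3%), pancreas and testis in 3 (83.1%), pancreas and thymus in 3 (82.3%) and testis and thymus in 4 (54.8%). With most of the table called in each pair, nothing particular to the MmuMitochon probesets is read from these counts. The median difference of all probesets was -0.19 for fibroblast minus pancreas, 0.19 for pancreas minus testis and 0.20 for pancreas minus thymus. Of the 22 differences called, 19 had the same sign at the 3 centers. With tissue at center as a random block (consensus correlation 0.36) 20 of them still passed, and with the aliquots averaged 15.

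MmuMitochon.6.1.S1_s_at separated the 4 tissues in full, in the order testis, thymus, pancreas and fibroblast. On the log2 scale testis exceeded thymus by 0.38 (SE 0.12, limma adjusted p = 0.01005), and thymus exceeded pancreas by 0.31 (SE 0.12, adjusted p = 0.0214). Pancreas exceeded fibroblast by 0.34 (SE 0.12, adjusted p = 0.0132), while the fibroblast minus pancreas values of Oregon, Nebraska and Yerkes were -0.045, -0.54 and -0.44. With the aliquots averaged, none of these 3 neighbouring differences passed, at limma adjusted p of 0.0569, 0.0756 and 0.0574. The pancreas to fibroblast call was also lost without fibroblast aliquot 2 of Yerkes (0.0505), and the thymus to pancreas call without aliquot 2 of Yerkes of either tissue (0.0504 and 0.0517).

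For MmuMitochon.3.1.S1_s_at the order was testis, pancreas, thymus and fibroblast. The difference between pancreas and testis did not pass (-0.28, SE 0.20, adjusted p = 0.19 from limma), pancreas exceeded thymus by 0.57 (SE 0.20, adjusted p = 0.00872) and thymus exceeded fibroblast by 0.46 (SE 0.20, adjusted p = 0.0463). The last difference was 0.07 at Nebraska and no longer passed in 18 of 44 alternatives, among them 11 of the 30 that left out 1 array (either fibroblast array of Nebraska or Yerkes, either Oregon array of thymus or pancreas, or aliquot 2 of Yerkes from thymus, pancreas or cortex). Its largest adjusted p when 1 array was left out was 0.135, without fibroblast aliquot 2 of Yerkes.

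MmuMitochon.10.1.S1_s_at set fibroblast below the rest, with log2 differences of -2.07 from pancreas (SE 0.24, adjusted p = 3.38e-09 from limma), -2.47 from testis (adjusted p = 8.61e-11) and -1.97 from thymus (adjusted p = 1.09e-08). Among the other 3 tissues no difference passed the threshold, with an SE pooled over all tissues. Testis was nevertheless above both at each center, with testis minus thymus at 0.43, 0.60 and 0.49 and pancreas minus testis at -0.29, -0.40 and -0.51 for Oregon, Nebraska and Yerkes. By center, fibroblast minus pancreas came to -0.84 (Oregon), -3.11 (Nebraska) and -2.27 (Yerkes). Beside this spread over centers the SE of 0.24 is small, and the p-values above overstate the precision. Under all alternatives the 3 fibroblast differences were still called, at limma adjusted p of at most 8.69e-05.

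In the order of MmuMitochon.12.1.S1_s_at, pancreas came first and exceeded testis by 0.56 (SE 0.19, adjusted p = 0.00902 from limma), although the difference was -0.08 at Nebraska. Testis exceeded fibroblast by 1.00 (SE 0.19, adjusted p = 3.96e-05), while the difference between fibroblast and thymus did not pass (0.18, adjusted p = 0.447). Pancreas was above thymus by 1.74 (SE 0.19, adjusted p = 1.51e-09), with 1.80, 1.64 and 1.80 at Oregon, Nebraska and Yerkes. Fibroblast and pancreas, the tissues with the largest 3' excess of GAPDH, differed by -1.56 for this probeset (fibroblast minus pancreas, adjusted p = 1.65e-08), and the part of RNA quality in this was not tested.

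MmuMitochon.13.1.S1_at had 1 call, pancreas above testis by 0.39 (SE 0.15, adjusted p = 0.0198 from limma). Oregon gave 0.26, Nebraska 0.93 and Yerkes -0.03. It was lost when pancreas aliquot 1 of Nebraska, pancreas aliquot 2 of Oregon or testis aliquot 2 of Nebraska was left out (adjusted p = 0.0775, 0.0512 and 0.065).

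**Figure D3:**
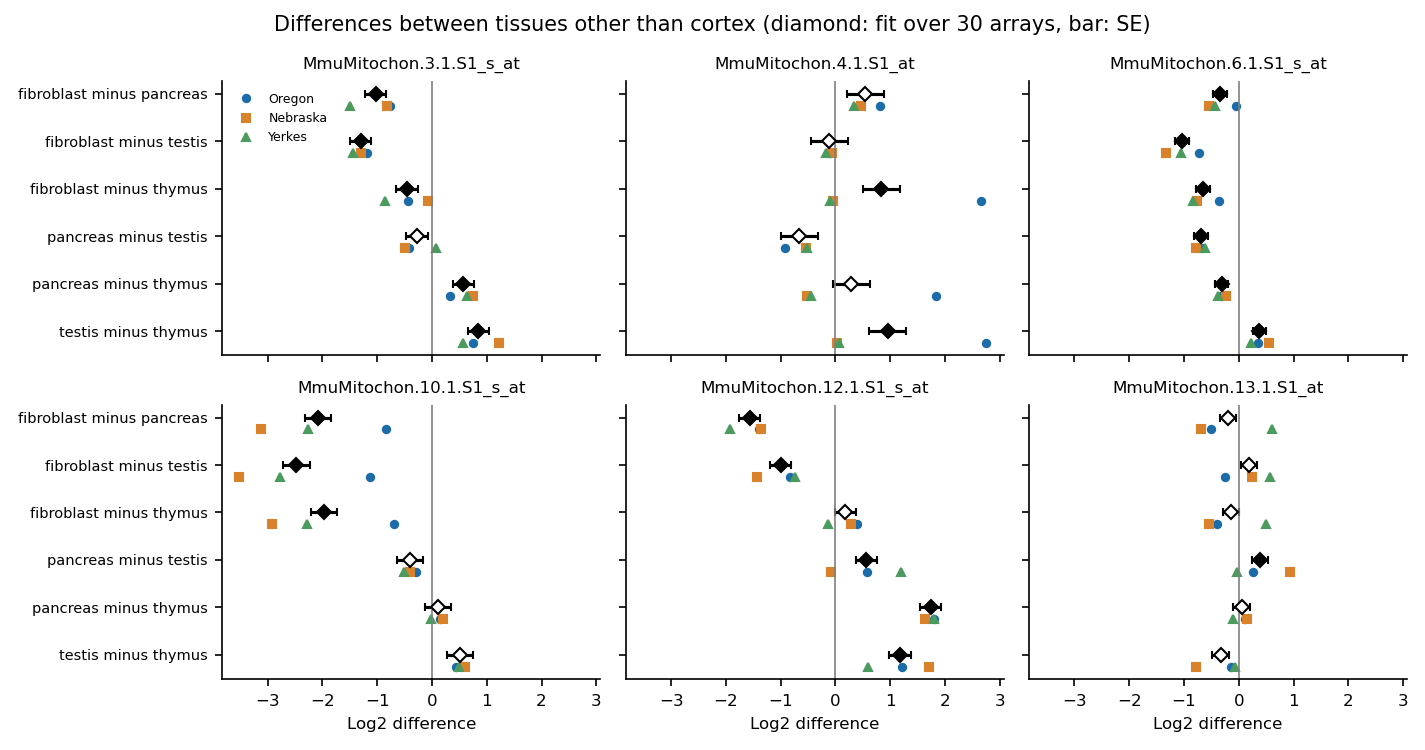
Log2 difference (x axis) of each pair of tissues other than cortex (y axis) for each MmuMitochon probeset. Diamonds with SE bars come from the limma fit over 30 arrays and are filled where the difference was called, and small symbols give each center. MmuMitochon.10.1.S1_s_at has its 3 fibroblast differences between -2.47 and -1.97, and the thymus differences of MmuMitochon.4.1.S1_at are spread by Oregon.

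The largest dependence on the center was that of MmuMitochon.4.1.S1_at. Its cortex signals were 11.35 and 11.09 on the Oregon arrays, 14.12 and 14.17 on those of Nebraska, and 14.34 and 14.53 on those of Yerkes. For thymus, Oregon gave 11.31 and 11.45, Nebraska 14.49 and 14.45, and Yerkes 14.71 and 14.83. The Oregon arrays of both tissues were thus low in both aliquots and apart from every other array of this probeset.

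In the remaining tissues the Oregon arrays were lower by less. Oregon gave 13.20 and 13.22 for pancreas where Nebraska gave 13.96 and 13.97. Both Oregon arrays of testis had 14.14, against 14.45 and 14.54 for Nebraska. For fibroblast, Oregon had 14.09 and 13.98 and Nebraska 14.46 and 14.39.

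The tissue by center interaction of MmuMitochon.4.1.S1_at had a moderated F of 148 (adjusted p = 3.63e-12 from limma), the rank 3 of 52865. Without the Oregon arrays its adjusted p was 0.937. Testis exceeded thymus by 0.95 over the 3 centers (SE 0.34, adjusted p = 0.0171), but by 2.76 within Oregon against 0.02 (Nebraska) and 0.075 (Yerkes). Fibroblast exceeded thymus by 0.84 (SE 0.34, adjusted p = 0.0332), with 2.65 at Oregon and the opposite sign at Nebraska (-0.04) and Yerkes (-0.09). Either call was lost when 1 Oregon array of thymus was left out, or 1 Oregon array of the tissue compared with it. The adjusted p was then 0.0572 to 0.0721 for testis and 0.0972 to 0.131 for fibroblast. On every Nebraska and Yerkes array of testis, thymus and fibroblast, this probeset ranked between 1 and 4 from the top. So near the top of the scale, differences between tissues may be compressed, which was not tested.

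MmuMitochon.10.1.S1_s_at was the other probeset with a large interaction (F = 30.9, adjusted p = 2.55e-07 from limma, rank 183), and here fibroblast carried it. The Oregon arrays of fibroblast had 12.60 and 12.70, the Nebraska arrays 10.33 and 10.27 and the Yerkes arrays 11.53 and 11.26, while pancreas kept between 13.39 and 13.70 at all centers. In all, the interaction was called in 5 of 6 MmuMitochon probesets and in 28.3% of the table. Without Oregon, and so with fewer arrays, 1 of the 6 was called, MmuMitochon.13.1.S1_at (adjusted p = 0.0158), and MmuMitochon.10.1.S1_s_at was not (0.0963). The share of the table called without Oregon was not counted, so nothing particular to the MmuMitochon probesets is read from this drop. MmuMitochon.12.1.S1_s_at was the exception (adjusted p = 0.376), and it passed when either testis array of Nebraska was left out (0.0064 without aliquot 1 and 1.26e-06 without aliquot 2).

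Between centers, with tissue as a term, 3 of 6 MmuMitochon probesets were called for Oregon against Nebraska (22.4% of the table), 5 for Oregon against Yerkes (96%) and 3 for Nebraska against Yerkes (96.2%). The median difference of all probesets was -0.03, -0.62 and -0.58 in these pairs. Each center was normalized separately, and the source of these shifts was not tested. For MmuMitochon.4.1.S1_at, Oregon minus Nebraska was -1.50 (SE 0.26, limma adjusted p = 5.64e-05), which is -1.47 relative to the median of all probesets. Oregon minus Yerkes was -1.81 (SE 0.26, limma adjusted p = 1.43e-07), or -1.19 relative to that median. For MmuMitochon.13.1.S1_at, Oregon minus Nebraska was -0.43 (SE 0.12, limma adjusted p = 0.00775). The third call, MmuMitochon.10.1.S1_s_at, which was higher at Oregon by 0.50 (SE 0.18, adjusted p = 0.0493), was lost in 25 of 38 alternatives, 20 of them leaving out 1 array (adjusted p up to 0.119, without fibroblast aliquot 1 of Oregon).

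Of the 4 probesets with the identifier prefix MmurRNA, which names ribosomal RNA, some were also lower at Oregon. MmurRNA.1.1.S1_at had tissue means of 6.25 to 10.15 at Oregon, 9.94 to 13.36 at Nebraska and 9.56 to 13.45 at Yerkes. Like MmuMitochon.4.1.S1_at, it had its lowest mean at Oregon in each tissue, and at every center thymus was highest (10.15, 13.36 and 13.45) and cortex lowest (6.25, 9.94 and 9.56). MmurRNA.2.1.S1_s_at averaged 8.36, 9.80 and 10.24 at the 3 centers, and MmurRNA.3.1.S1_at 6.20, 6.25 and 7.03. MmurRNA.2.1.S1_at averaged 9.67, 9.77 and 10.61, and its testis mean was higher at Oregon than at Nebraska (10.10 against 9.04). Their part in the Oregon values of MmuMitochon.4.1.S1_at was not tested.

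**Figure D4:**
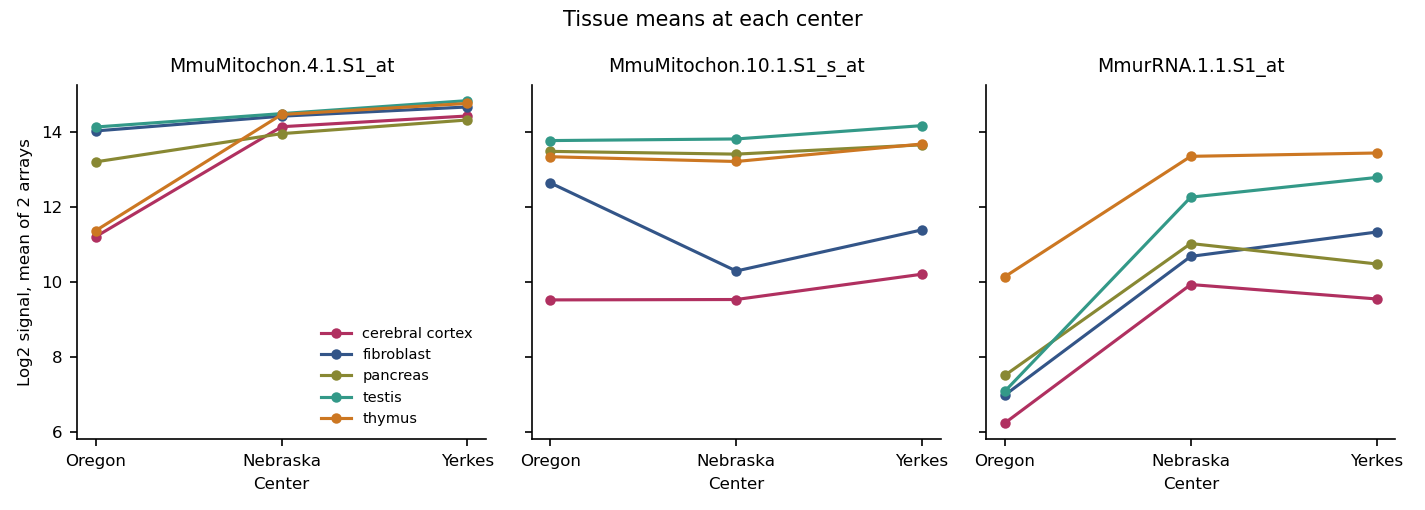
Log2 signal as the mean of 2 arrays (y axis) at each center (x axis) for the 5 tissues, for MmuMitochon.4.1.S1_at, MmuMitochon.10.1.S1_s_at and the ribosomal RNA probeset MmurRNA.1.1.S1_at. Cortex and thymus of MmuMitochon.4.1.S1_at stand near 11.22 and 11.38 at Oregon and at 14.15 or more elsewhere, and all tissues of both MmuMitochon.4.1.S1_at and MmurRNA.1.1.S1_at are lowest at Oregon.

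The absolute log2 difference within each pair of aliquots had a median over the 15 pairs of 0.06 for MmuMitochon.10.1.S1_s_at, 0.08 for MmuMitochon.4.1.S1_at and MmuMitochon.6.1.S1_s_at, 0.09 for MmuMitochon.12.1.S1_s_at, 0.13 for MmuMitochon.3.1.S1_s_at and 0.21 for MmuMitochon.13.1.S1_at. The center differences of MmuMitochon.4.1.S1_at in cortex and thymus were therefore far above the difference between aliquots, whose highest value was 0.25. The widest pair was testis at Nebraska, where MmuMitochon.12.1.S1_s_at was at 12.79 in aliquot 1 and 10.82 in aliquot 2, a difference of 1.97. MmuMitochon.3.1.S1_s_at differed by 1.03 in the same pair (13.88 and 12.85), and the other 4 by at most 0.19. In this pair 207 probesets (0.392%) differed by at least 1, and MmuMitochon.12.1.S1_s_at ranked 12 among all for the excess of aliquot 1.

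Among themselves, the 3 probesets that were low in cortex had similar profiles. After subtraction of each center's mean, the Pearson coefficient over 30 arrays was 0.99 between MmuMitochon.3.1.S1_s_at and MmuMitochon.6.1.S1_s_at, 0.89 between MmuMitochon.3.1.S1_s_at and MmuMitochon.10.1.S1_s_at and 0.88 between the last and MmuMitochon.6.1.S1_s_at. Without the cortex arrays these coefficients were 0.72, 0.75 and 0.84 over 24 arrays. MmuMitochon.12.1.S1_s_at had a coefficient of -0.56 with MmuMitochon.3.1.S1_s_at over all arrays and 0.81 without cortex. The arrays of a tissue share 1 RNA and form clusters, so these coefficients describe the profiles only.

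Of the probesets with 1 gene symbol and a range of at least 1 over the tissue means, the most similar in profile were then listed. The closest to MmuMitochon.6.1.S1_s_at were the sialomucin gene CD164 (r = 0.99), ZXDC and LOC696998 (both 0.98), and the closest to MmuMitochon.3.1.S1_s_at were CD164 (0.98), KHNYN (0.98) and ZXDC (0.97). CD164 stood at 8.74 in cortex and between 10.87 and 11.31 elsewhere, so its cortex difference was smaller than those of MmuMitochon.3.1.S1_s_at and MmuMitochon.6.1.S1_s_at. MmuMitochon.10.1.S1_s_at was nearest to CD164 on another probeset (0.96), RAB27A (0.94), a small GTPase of vesicle transport, and KIAA1217 (0.94).

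Nearest to MmuMitochon.12.1.S1_s_at were the homeobox gene PKNOX2 (0.96), CCDC180 (0.94) and SEZ6L2 (0.94), which all had their highest tissue mean in cortex. The coefficients were lower for MmuMitochon.13.1.S1_at, with MCEE, an epimerase of mitochondrial propionate metabolism, and IMPDH2, an enzyme of guanine nucleotide synthesis (both 0.82), and RAB27A (0.81). MmuMitochon.4.1.S1_at had SEC31A, a coat protein of vesicles leaving the endoplasmic reticulum (0.73), the hormone gene STC1 (0.70) and the microfibril gene FBN1 (0.69).

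The nuclear partners of these complexes did not share the low cortex signal of MmuMitochon.3.1.S1_s_at, MmuMitochon.6.1.S1_s_at and MmuMitochon.10.1.S1_s_at. Of 82 listed subunit genes of complexes I to V, 55 were measured, and 41 of them were higher in cortex than the mean of the other 4 tissues, 6 were lower and 8 did not pass. Over all probesets, 25.9% were called higher and 37.7% lower. The median difference of the 55 genes was 0.37, with a range from -0.69 to 3.35, so the lowest nuclear subunit was above the 3 MmuMitochon probesets by more than 2.

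By complex, 16 of 24 nuclear genes of complex I were higher in cortex and 2 lower, led by the iron-sulfur subunit NDUFS1 (1.36), NDUFA12 (0.92) and NDUFA8 (0.87), with NDUFV3 (-0.22) and NDUFB3 (-0.14) below. All 7 of complex III were higher, led by UQCRB (3.35), UQCRC2 (0.83) and the cytochrome c1 gene CYC1 (0.57). In complex IV 7 of 9 were higher, led by NDUFA4 (1.94), COX7A2 (1.05) and COX5A (0.74), and COX4I2 was lower (-0.30). In complex V, the ATP synthase, 9 of 12 were higher, led by ATP5F1B (1.03), ATP5MC1 (0.90) and ATP5PD (0.39), and 2 lower, ATP5PB (-0.69) and ATP5MC2 (-0.27). COX4I2 (5.99 to 6.84 by tissue mean) and ATP5PB (5.90 to 6.89) had signals near the array means, so background may limit their differences. Complex II, which has no subunit coded by the mitochondrial genome, had SDHB (0.39) and SDHA (0.16) higher and SDHC (-0.22) lower, and SDHA changed sign without the pancreas arrays (-0.15). The largest adjusted p of these named genes was 0.0141 from limma.

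Genes that express the mitochondrial genome are described beside the same shares of all probesets, 25.9% higher and 37.7% lower. Of 15 measured genes for its maintenance and transcription, 12 were lower in cortex and 2 higher (median -0.54). Lower were RNASEH1 (-0.98), which removes RNA from hybrids with DNA, the coactivator PPRC1 (-0.93) and TFAM (-0.87), which packages the mitochondrial DNA and starts its transcription. The coactivators of mitochondrial biogenesis PPARGC1A (1.87) and PPARGC1B (0.27) were higher. PPARGC1A stood at 7.19 in cortex and from 4.80 to 6.03 elsewhere, where background may limit the difference.

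Of 14 genes of mitochondrial RNA processing, 6 were lower and 2 higher (median -0.16). FASTKD3 (-0.81), the exoribonuclease PNPT1 (-0.61) and the tRNA-processing enzyme ELAC2 (-0.59) were lower, and the mitochondrial poly(A) polymerase MTPAP (1.01) and the RNA-binding GRSF1 (0.28) higher. The signal of MTPAP was low, at 6.43 in cortex and from 5.19 to 5.75 elsewhere, so background may limit its difference. Of 11 translation factors, 5 were higher, led by MTIF3 (1.80), MRRF (1.38) and GFM2 (0.46), and 2 lower, MTIF2 (-0.97) and MTRF1 (-0.46), with a median of 0.06. Together, 20 of these 40 genes were lower in cortex and 9 higher, and none differed by as much as the -3.31 of MmuMitochon.10.1.S1_s_at.

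**Figure D5:**
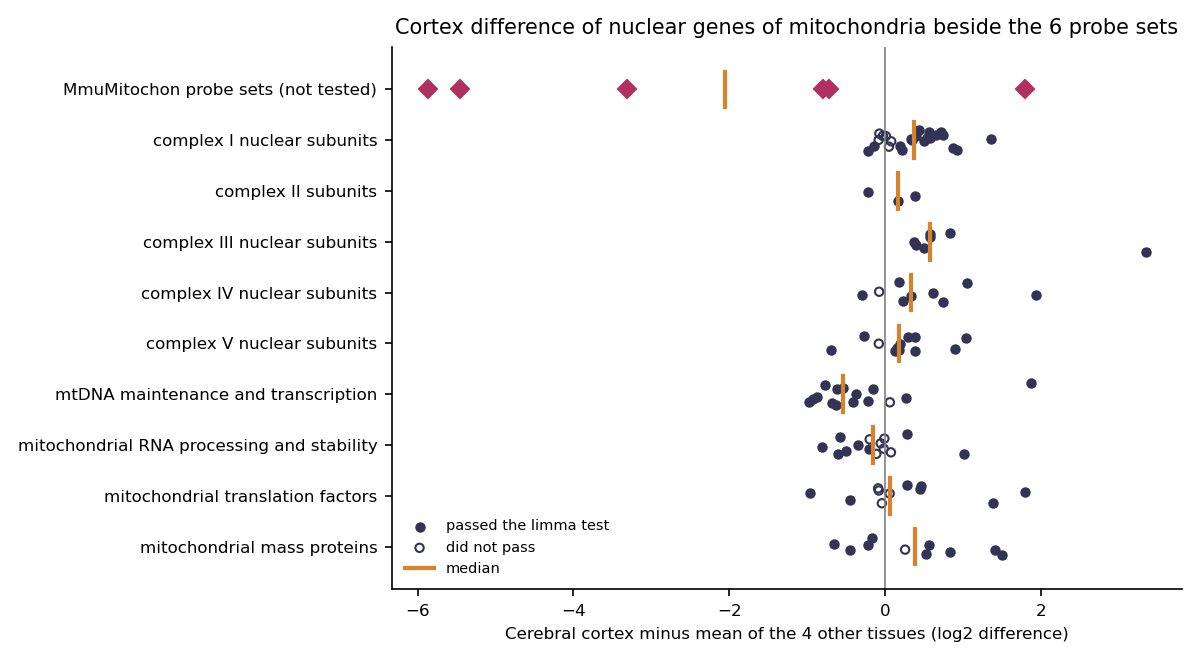
Log2 difference between cerebral cortex and the mean of the 4 other tissues (x axis) for the MmuMitochon probesets, which were not tested, and for measured nuclear genes of mitochondria by list (y axis), with the median of each row as a line. Filled circles passed the limma test over all probesets. The nuclear genes lie between -0.98 and 3.35, and 3 MmuMitochon probesets lie below -3.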

How the data were processed

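The authors extracted total RNA with Trizol, and each center labeled it by the standard Affymetrix protocol with an oligo(dT) primer. The deposited values are on a log2 scale. Per the study's methods, the authors corrected background with MAS 5.0, quantile normalized the arrays of each center separately and summarized all 30 arrays by RMA, whose version is not given in the sources used here. Detection calls and scanner intensities were not analysed here, so no floor of detection can be given, and the number of arrays limits the precision.

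From these values limma (version 3.58.1 in R 4.3.3) was fitted over all 52865 probesets with tissue and center as terms, and Benjamini-Hochberg adjustment ran over all probesets within each comparison at a threshold of 0.05. The interaction was tested with the moderated F. The fit was tested on simulated data with independent noise on each array and no tissue by center interaction. That simulation does not show how well the p-values hold for these arrays. Genes were named from the platform annotation, with 24969 probesets of 1 symbol updated through gene identifiers of RefSeq (assembly T2T-MMU8v2.0), and where a listed gene had several probesets, that of the highest mean signal was used. Named genes were the 6 members, the 3 most similar in profile for each, and from each list up to 3 called genes per direction with the largest difference. The members and lists were chosen with earlier results of these data known. Alternatives were another normalization, filter or scale, averaged or blocked aliquots, and arrays, centers or pancreas left out.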

Additional observations from a re-analysis of the deposited data

Results flagged for a closer look

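In testis, the MmuMitochon.12.1.S1_s_at signal of aliquot 1 at Nebraska, 12.79, lay 1.51 above the nearest of the other 5 testis arrays, more than Dixon's criterion for 6 values allows. It was 1 of 30 sets of 6 arrays examined, and chance flags about 1 in 20.

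The tissue differences of 5 probesets depended on the center by the limma interaction test, with an adjusted p of 3.63e-12 for MmuMitochon.4.1.S1_at, 2.55e-07 for MmuMitochon.10.1.S1_s_at, 0.00294 for MmuMitochon.13.1.S1_at, 0.00549 for MmuMitochon.3.1.S1_s_at and 0.0138 for MmuMitochon.6.1.S1_s_at. The last was lost without either cortex array of Oregon (0.0528 without aliquot 1 and 0.0503 without aliquot 2).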

How the results depend on the processing

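The cortex difference kept its sign for each of the 6 MmuMitochon probesets under all 44 alternatives. Its median of -2.05 became -2.88 at Oregon alone and -0.80 on normal scores of ranks, another scale. Of 36 differences between tissues other than cortex, 22 were called, against 15 without a center term, 15 with aliquots averaged and 12 of 18 without pancreas. When 1 array was left out, 19 to 23 were called. Within single centers the sign turned for MmuMitochon.12.1.S1_s_at in pancreas against testis (-0.0769, Nebraska), for MmuMitochon.13.1.S1_at in the same pair (-0.0304, Yerkes) and for MmuMitochon.4.1.S1_at in fibroblast against thymus (-0.0449 at Nebraska, -0.0940 at Yerkes, -0.0694 without Oregon), and SDHA turned to -0.15 without pancreas. Of 18 center differences 11 were called, 5 after quantile normalization of all 30 arrays, 5 on normal scores, and of 6 each 4, 5 and 2 without Oregon, Nebraska and Yerkes. Interactions fell from 5 to 1 without Oregon. The 6 nuclear subunits lower in cortex became 12 after quantile normalization of all 30 arrays, 1 without a center term, 11 without pancreas and 10 on normal scores. The causes were not tested, beyond the smaller number of arrays or pairs where some were left out. The share of the whole table called under each alternative was not counted. Changes in these counts are therefore not read as particular to the MmuMitochon probesets or the listed genes.

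With the aliquot number as a replicate block, 22 tissue differences, 10 center differences and 5 interactions were called. The numbers were not taken to pair the samples. Deviations of equally numbered aliquots correlated between -0.30 and 0.35 within a center (median 0.0005). Between centers the range was -0.30 to 0.28 (median 0.003).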

Other observations

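Genes of proteins that mark the amount of mitochondria were divided in their RNA signal in cerebral cortex. Of 10 genes measured, 5 were higher than the mean of the other 4 tissues, 4 lower and 1 not called, with a median log2 difference of 0.39. Over all probesets 25.9% were called higher and 37.7% lower. The import receptor TOMM20 (1.50), the outer membrane channel VDAC1 (1.41) and the ADP/ATP carrier SLC25A4 (0.83) were higher, and PHB2 (-0.65), a second carrier, SLC25A5 (-0.46), and the import motor component TIMM44 (-0.21) were lower, all past the limma threshold.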
